A study of Arabidopsis thaliana with 21 samples.

Results

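The subject is a set of 116 nuclear loci of Arabidopsis thaliana at which 24-nt small RNAs outnumbered 21-nt and 22-nt small RNAs in wild-type Col-0. A locus entered the set when its mean over the 3 Col-0 libraries was at least 50 normalized 24-nt reads and at least 4 times its Col-0 mean in both the 21-nt and the 22-nt table. Of 32420 loci listed in the small RNA tables, 32210 were nuclear, 242 nuclear loci reached the minimum of 50, and 116 also met the 4-fold requirement. The other 126 loci that reached the minimum served as the nearest comparison. The members were thus chosen by their small RNA values in Col-0, and small RNA differences between a mutant line and Col-0 are given below as descriptions without a test.

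The study concerned DXO1, a decapping enzyme that takes NAD off the ends of RNA and also degrades RNA. Small RNAs of plants labelled as rosette leaves at 10 days (the extraction protocol names seedlings) were sequenced in 4 lines: wild-type Col-0, the single mutants dxo1-2 and dcl4-2, and the double mutant dxo1-2dcl4-2. The mRNA of plants labelled as rosette leaves at 16 days was sequenced in Col-0, dxo1-1 and dxo1-2. Every group had 3 libraries, and the labels name neither a treatment nor separate cultures, so the spread behind the p-values may be technical.

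In plants, 24-nt siRNAs are made from transcripts of RNA polymerase IV, which RDR2 copies into double strands and DCL3 dices. Argonautes of the AGO4 group carry them to chromatin, where they guide DNA methylation and keep transposons and repeats silent (RNA-directed DNA methylation, RdDM). DCL4, the dicer missing in dcl4-2, makes 21-nt siRNAs, and DCL2 makes 22-nt siRNAs.

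DXO1 mRNA measured 10.04, 11.97 and 10.77 FPKM in Col-0 and 6.67, 5.88 and 7.64 FPKM in dxo1-2. The libraries labelled dxo1-1 held 193, 195 and 249 FPKM of DXO1, so dxo1-1 below stands for the libraries that carry that label. Leaf markers were abundant in the mRNA (LHCB1.1 averaged 13890 FPKM in Col-0), and the seed genes CRA1 and AT2S3 were at or below 0.0467 FPKM in every line. The small RNA libraries held between 37059 and 349045 24-nt reads assigned to loci, and the deposited values of each library were whole multiples of the value of 1 read.

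What the members shared beyond the rule was mainly their annotation, and the other 126 loci that reached the minimum shared it too. The reference classed 71 of the 116 (61.2%) as pseudogenes, against 12.1% of all nuclear loci, and 6 more as transcribed pseudogenes. Only 38 (32.8%) were protein-coding genes, against 82.9% of nuclear loci. The other 126 loci held 78 pseudogenes, 9 transcribed pseudogenes and 36 protein-coding genes, so this make-up was not particular to the members. One locus, AT1G01073, had no reference entry, and none was classed as a microRNA or other noncoding RNA gene. The reference has no separate class for transposon genes. The members lay on all 5 chromosomes, with 30 on chromosome 1, 23 on 2, 24 on 3, 11 on 4 and 28 on 5.

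Some members were neighbours or had near-identical values. GH9B9, GH9B10, GH9B11 and GH9B12, which encode glycosyl hydrolases of the endoglucanase family, stood next to each other on chromosome 2 and formed the longest of 4 runs of adjacent members. In 8 sets holding 17 members, loci were joined in pairs by near-identical 24-nt reads, as reads counted at near-identical copies would give. The differences of a pair, summed over the 12 libraries, were under 3% of its joint reads. One such set held AT2G19850 and AT3G54730, joined only through OFP9 (a gene of the OVATE family), and another joined APD3 and APD4. Values of these loci are uncertain as to the copy, and counting each set once left 107 members.

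The Col-0 means of the members ran from 50.3 to 847.5 normalized 24-nt reads, with a median of 81.1, and 23 members reached 200. At the lower edge, AT5G39185 and AT5G39155 (both 50.3), AT1G67450 (51.0) and AT1G36622 (51.2) were just inside the minimum. AT3G25485 (49.7), AT1G16660 (49.7), AT4G09710 (49.5) and AT2G20460 (48.5) were just outside it. At the edge of the fold requirement, AT5G34870, AT1G34610, AT3G09170 and AT3G30714 had ratios of 4.02 to 4.11. AT1G67240, AT4G20725, AT2G02110 and AT1G70010 had ratios of 3.88 to 3.92 and stayed out.

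The most abundant member was AT2G16030, an annotated protein-coding gene. Its 24-nt reads were 914, 857 and 771 in Col-0, 1237, 1118 and 784 in dxo1-2, 698, 1014 and 939 in dcl4-2, and 1009, 881 and 917 in dxo1-2dcl4-2. The 4 lines overlapped at this locus. Second came CYP708A2 (AT5G48000), the cytochrome P450 that hydroxylates the triterpene thalianol. Its values were 1002, 687 and 738 in Col-0, 645, 626 and 335 in dxo1-2, 535, 903 and 747 in dcl4-2, and 219, 186 and 207 in dxo1-2dcl4-2. All 3 double-mutant libraries lay below the other 9.

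The ratio of these 2 loci within a library does not depend on any scaling between libraries. CYP708A2 gave 0.951 ± 0.147 reads (SD, n = 3) per AT2G16030 read in Col-0, 0.503 ± 0.0685 in dxo1-2, 0.818 ± 0.0647 in dcl4-2 and 0.218 ± 0.00731 in dxo1-2dcl4-2. The 3 double-mutant libraries had the lowest ratios, 0.212 to 0.226, and the nearest other library, of dxo1-2, had 0.427.

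**Figure D1:**
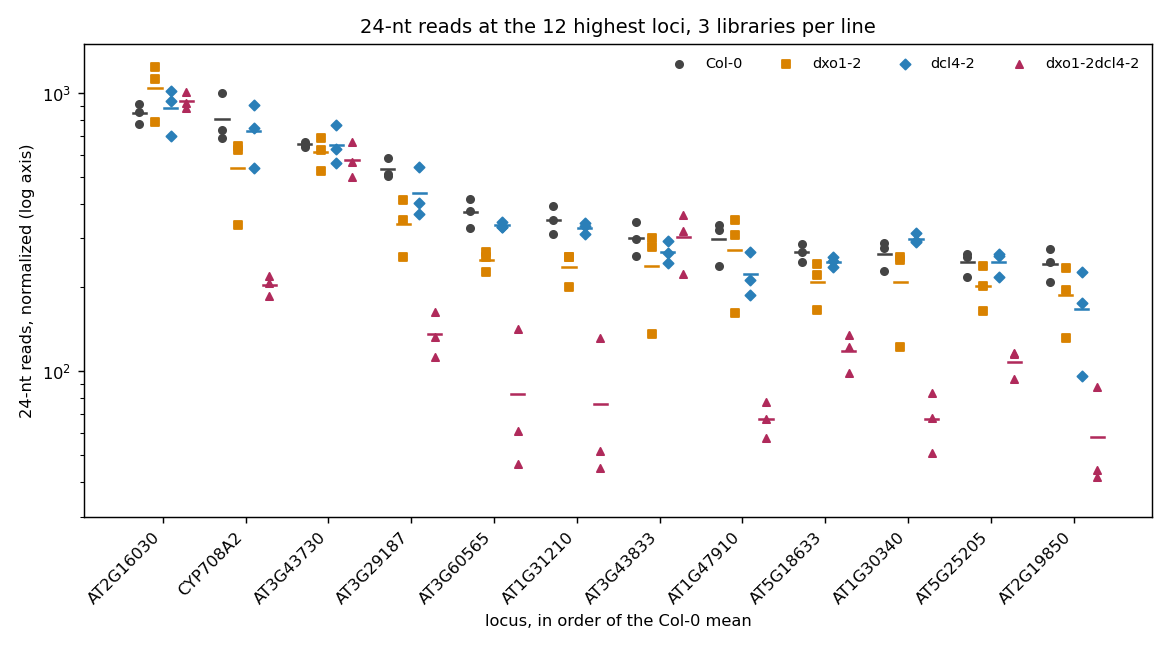
24-nt reads at the 12 members with the highest Col-0 mean (normalized reads, log axis). Each point is 1 library and each dash the mean of 3. The dxo1-2dcl4-2 triangles lie below the other lines at 9 of the 12 loci and among them at AT2G16030, AT3G43730 and AT3G43833.

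The double mutant held fewer 24-nt reads than either single mutant at many members. Summed over the 116 loci, normalized 24-nt reads were 15640, 15730 and 15290 in Col-0, 13830, 13090 and 10390 in dxo1-2, 12530, 13070 and 14420 in dcl4-2, and 8181, 7846 and 7574 in dxo1-2dcl4-2. The 3 double-mutant sums lay below the 6 single-mutant sums, whereas the sums of dxo1-2 and dcl4-2 overlapped. As a share of all 24-nt reads of a library, the members held 16.0% ± 0.375 (SD, n = 3) in Col-0, 14.5% ± 1.91 in dxo1-2, 12.9% ± 0.574 in dcl4-2 and 4.83% ± 0.0473 in dxo1-2dcl4-2. Reads of the nitrate reductase gene NIA1 made up 21.2% of the 24-nt reads of the double mutant and at most 0.0676% in any other library. Without NIA1 the members' share in the double mutant was 6.13% ± 0.0816.

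The order of loci within a library needs no scaling, but a rank depends on the other loci as well. The rule favoured the members in Col-0. In the double mutant, 143 of the 8473 loci tested below were called higher at 24 nt than in dcl4-2 (adjusted p under 0.05, limma). Of the 8473, 4397 had a log2 difference below 0, so many others had as many reads or more without passing. Loci that gained reads can lower the rank of unchanged loci. Of the 116 nuclear loci with the most 24-nt reads, members made up 61, 65 and 63 in the Col-0 libraries, 54, 51 and 50 in dxo1-2, 46, 39 and 45 in dcl4-2, and 22, 21 and 20 in dxo1-2dcl4-2.

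**Figure D2:**
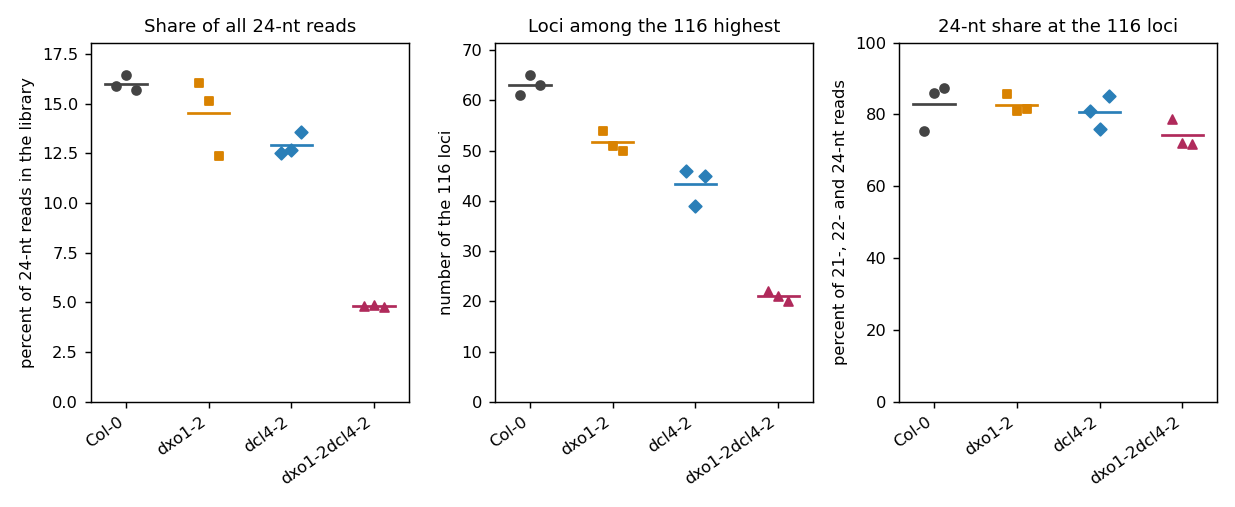
The 116 loci in each of the 12 small RNA libraries: their percent of all 24-nt reads, how many of them were among the 116 nuclear loci with most 24-nt reads, and 24-nt reads as a percent of their 21-, 22- and 24-nt reads. Points are libraries and lines the means of 3. The first 2 panels show dxo1-2dcl4-2 at the lowest values, 4.79% to 4.88% and 20 to 22 loci.

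Locus by locus, the 3 mutant lines were compared with limma on log2(normalized reads + 0.5) over all 8473 loci with a mean of at least 1. P-values were adjusted by Benjamini-Hochberg. The fit held all 12 libraries, so the Col-0 libraries that chose the members also entered its estimate of the spread. All 116 members passed the filter at a mean of 1, which the rule had ensured through Col-0. Against dcl4-2, 44 members were lower in dxo1-2dcl4-2 and 0 were higher, where 2.88% of all loci tested were lower and 4.57% differed in either direction. The median log2 difference was -1.07 over the members and -0.08 over all loci tested, and 94 members were below 0. At an unadjusted p under 0.05, 68 members differed, as did 58 of the other 126 loci and 1588 of all 8473 loci tested. At the adjusted threshold, 25 of the other 126 loci were lower and 2 higher, with a median of -0.32. Counting each set of near-identical values once, 41 members were lower.

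Against dxo1-2, 31 members were lower in the double mutant and 1 was higher, where 1.38% of all loci were lower, 1.11% higher and 2.49% different in either direction. The median was -0.93 over the members, -0.23 over all loci and -0.03 over the other 126 loci, of which 6 were lower and 3 higher. Leaving out the second dxo1-2 library reduced the members called from 27.6% to 16.4%. The share of all loci called in that fit is not given here, so a loss over all loci and a loss at the members cannot be told apart. Both comparisons use the same 3 double-mutant libraries. In 49 members (42.2%) every double-mutant library was below all 6 single-mutant libraries, which held for 4.10% of all loci tested and for 13 of the other 126 loci.

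These counts depend on what the libraries are scaled to. With 24-nt reads scaled by 81 microRNA genes instead, an alternative chosen after seeing the data, 5 members were lower against dcl4-2 (0.557% of all loci) and 56 against dxo1-2 (5.22%), and 0 were higher in either. Under that scaling the median of all loci moved to 0.15 against dcl4-2 and -0.96 against dxo1-2, while the members' medians were -0.66 and -1.80. With edgeR on the recovered reads, 48 members were lower against dcl4-2 (2.90% of all loci) and 80 against dxo1-2 (6.04%). Scaled by the reads of all 3 size tables, 97 members were lower against dcl4-2 (9.85% of all loci) and 115 against dxo1-2 (25.3%). The members' medians were then -2.39 and -3.09, and those of all loci -0.94 and -1.73. The members' median lay below that of all loci under each of these scalings. A change of scaling shifts the loci of a library by nearly the same amount. That order was therefore nearly fixed in advance and is no separate support.

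Some of the largest falls against dcl4-2 were at loci with modest read numbers. AT3G43686, a pseudogene, had 43.6, 56.7 and 33.6 normalized 24-nt reads in dcl4-2, 69.8, 71.0 and 34.7 in dxo1-2 and 0.662, 23.5 and 10.4 in dxo1-2dcl4-2. Its log2 difference was -2.71 ± 0.67 (SE, adjusted p = 0.0145, limma) against dcl4-2 and -3.06 ± 0.67 (adjusted p = 0.00671) against dxo1-2. The double-mutant libraries did not overlap those of the single mutants, and their own spread was wide. AT1G36622 fell from 51.6, 29.6 and 63.8 in dcl4-2 to 7.28, 4.71 and 10.4 (log2 -2.61 ± 0.53, adjusted p = 0.00267), and AT1G47950 fell by 2.56. AT5G12090, AT5G42957 and AT1G31210 completed the 6 largest, with log2 differences of -2.33, -2.31 and -2.27.

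Among abundant loci, AT1G31210, a pseudogene, had the clearest fall against dcl4-2. It measured 311, 340 and 332 in dcl4-2, 256, 257 and 200 in dxo1-2 and 132, 51.8 and 44.7 in dxo1-2dcl4-2, with an adjusted p of 1.77e-07 against dcl4-2 (limma). AT3G29187 went from 402.5, 367.5 and 542 in dcl4-2 to 112, 164 and 133 (log2 -1.67 ± 0.17). The pseudogene AT1G30340 went from 291, 313 and 295 to 83.4, 67.8 and 50.7 (log2 -2.18 ± 0.23). In all 3 of these loci every double-mutant library was below every single-mutant library. AT3G60565, AT1G47910, AT5G18633, AT5G25205 and AT2G19850, also among the 12 most abundant members, were lower against both single mutants, with log2 differences between -2.17 and -0.82. CYP708A2 differed by -1.80 ± 0.18 against dcl4-2 and -1.33 ± 0.18 against dxo1-2.

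The endoglucanase run carried some of the largest falls against dxo1-2. GH9B9 measured 64.2, 56.6 and 59.3 in dxo1-2 and 5.96, 20.7 and 14.9 in dxo1-2dcl4-2 (log2 -2.24 ± 0.45, adjusted p = 0.00283, limma). GH9B10 and GH9B11 were lower by log2 differences of -1.86 and -1.64. GH9B12 gave -1.45 with an adjusted p of 0.0749 and did not pass. The remaining largest falls against dxo1-2 were at AT1G41920 (-2.02), CYP51G2 (-1.99), AT1G47910 (-1.94) and AT5G09513 (-1.94). CYP51G2 is annotated as a transcribed pseudogene of the sterol demethylase family.

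AT2G16030, AT3G43730 and AT3G43833 were among the 7 most abundant members and did not pass against dcl4-2. The latter 2 had log2 differences of -0.18 ± 0.12 and 0.15 ± 0.22. AT3G43730 is a pseudogene with 629, 560 and 767 reads in dcl4-2 and 666, 497 and 565 in dxo1-2dcl4-2. One pseudogene, AT1G36630, was higher in the double mutant, with 79.5, 71.0 and 34.7 in dxo1-2 and 163, 126 and 131 in dxo1-2dcl4-2 (log2 1.26 ± 0.31, adjusted p = 0.0203, limma). Its groups did not overlap, but edgeR on the recovered reads gave an adjusted p of 0.548 and the microRNA scaling 0.675. Over the 116 loci, log2 differences against dcl4-2 ran from -2.71 to 1.08, with 62 below -1 and 22 above 0.

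**Figure D3:**
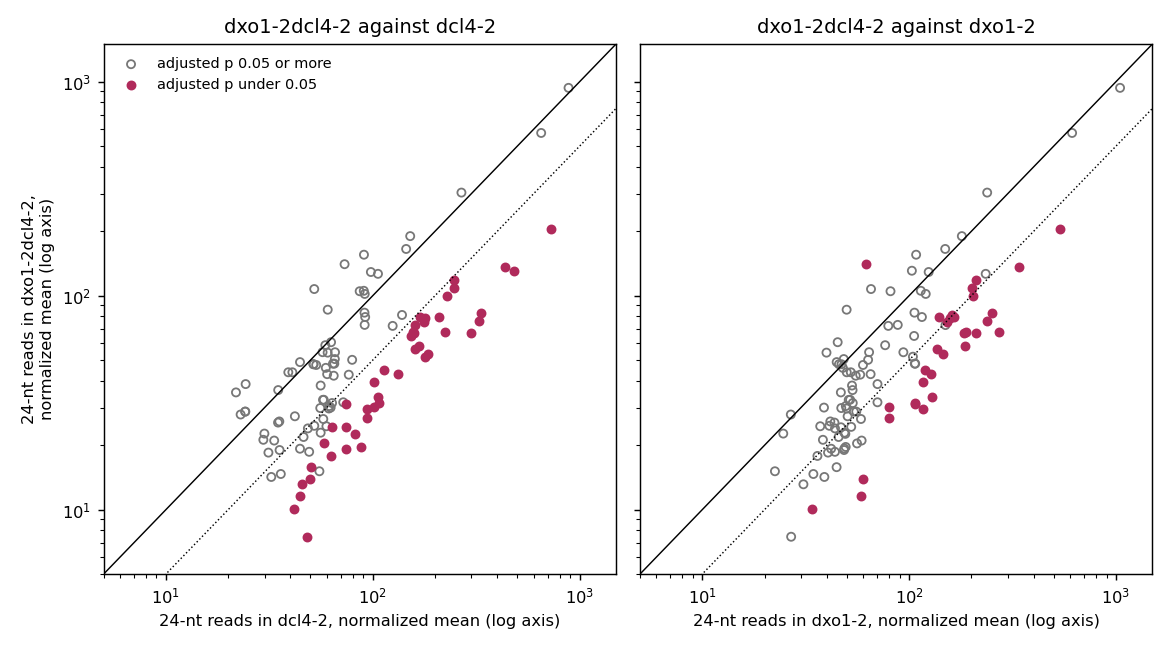
Mean normalized 24-nt reads of the 116 loci in dxo1-2dcl4-2 (vertical, log axis) against dcl4-2 (left) and dxo1-2 (right, log axes), 3 libraries per line. Filled points have an adjusted p under 0.05 in limma, the solid line marks equal values and the dotted line a log2 difference of -1. In the left panel 44 filled points lie below the solid line, and in the right panel 31 lie below it and 1 above.

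By annotation, the median log2 difference against dcl4-2 was -0.85 over the 71 pseudogenes, of which 23 were lower, and -1.22 over the 38 protein-coding members, of which 18 were lower. Against dxo1-2 the medians were -0.84 and -1.16, with 16 and 13 lower. The difference between the annotation classes was not tested.

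The 2 single mutants differed from each other at 2 members, 1 in each direction, where 0.189% of all loci were higher in dxo1-2, 0.437% lower and 0.626% different in either direction. AT1G73650 had 397, 599 and 451 normalized 24-nt reads in dcl4-2 and 116, 109 and 84.3 in dxo1-2, with 239, 185 and 167 in Col-0 and 130, 155 and 107 in dxo1-2dcl4-2. The dcl4-2 libraries stood above the other 9, and the log2 difference of dxo1-2 from dcl4-2 was -2.21 ± 0.21 (adjusted p = 3.66e-08, limma). AT2G41640, which encodes a glycosyltransferase, had 19.8, 14.8 and 38.3 in dcl4-2, 72.2, 73.7 and 65.0 in dxo1-2, 146, 137 and 111 in Col-0 and 30.4, 27.3 and 58.2 in dxo1-2dcl4-2. Here the lines with the dcl4-2 allele were lowest, and dxo1-2 exceeded dcl4-2 by 1.63 ± 0.39 (adjusted p = 0.0431). Under the microRNA scaling 6 members were higher in dxo1-2 (1.07% of all loci) and 0 lower, with a median of 1.08 over all loci. At AT1G73650 the difference was then -0.93 (adjusted p = 0.19), and at AT2G41640 it was 2.89 (adjusted p = 0.00534).

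Relative to Col-0, and without a test since Col-0 chose the loci, the median log2 ratio of the members' 24-nt means was -0.36 in dxo1-2, -0.25 in dcl4-2 and -1.36 in dxo1-2dcl4-2. The same medians over all loci were -0.12, 0.00 and 0.04.

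The 22-nt and 21-nt reads of the members were few. Their normalized 22-nt sums averaged 2100 ± 159 in Col-0, 2253 ± 166 in dxo1-2, 1744 ± 103 in dcl4-2 and 1573 ± 263 in dxo1-2dcl4-2 (SD, n = 3). The 21-nt sums averaged 1119 ± 115, 1308 ± 78.5, 761 ± 83.6 and 770 ± 33.1 in the same order. The 3 size tables were normalized separately, so levels are not compared between sizes on this scale.

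At 22 nt, 115 members were tested among 8498 loci. In dxo1-2dcl4-2 against dcl4-2, 5 were lower and 1 higher, where 2.48% of all loci were lower, 3.07% higher and 5.55% different in either direction. Against dxo1-2, 3 were lower and 0 higher, where 0.824% of loci were lower, 1.82% higher and 2.65% different. Between dxo1-2 and dcl4-2 there was 1 in each direction, where 0.412% of loci were higher in dxo1-2, 0.941% lower and 1.35% different. The median log2 difference of the double mutant from dcl4-2 was -0.05 over the members and 0.12 over all loci. Against dxo1-2 it was -1.07 and -0.24, with 101 of the 115 members below 0. Between dxo1-2 and dcl4-2 it was 0.88 and 0.38.

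AT4G05591, a pseudogene, had the highest 22-nt values in dcl4-2, with 337, 211 and 150 normalized reads, against 21.3, 21.9 and 1.1 in Col-0, 14.9, 8.26 and 13.7 in dxo1-2 and 36.5, 36.7 and 45.2 in dxo1-2dcl4-2. Its log2 difference was -4.15 ± 0.68 in dxo1-2 against dcl4-2 (adjusted p = 5.27e-05, limma) and -2.47 ± 0.68 in the double mutant against dcl4-2 (adjusted p = 0.0206). All 3 dcl4-2 libraries were above the other 9. AT3G42305 had 5.26, 0 and 0 in dcl4-2, 21.7, 15.5 and 27.0 in dxo1-2 and 23.8, 29.8 and 12.7 in the double mutant, and was higher in both than in dcl4-2. Lower in the double mutant than in dcl4-2 were also AT4G13885, AT1G73650, AT5G34870 and AT5G09513. Of these, AT1G73650 measured 33.3, 29.7 and 25.1 in dcl4-2 and 0, 5.35 and 2.32 in dxo1-2dcl4-2. The members lower than in dxo1-2 were AT5G09513, AT4G13885 and AT4G06569.

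At 21 nt, 113 members were tested among 7892 loci. Against dcl4-2, limma and edgeR each called 0 members in dxo1-2dcl4-2, where limma called 2.32% of all loci higher, 1.55% lower and 3.86% in all. At an unadjusted p under 0.05 in limma, 14 of the 113 members differed, as did 1220 of the 7892 loci. Against dxo1-2, 8 members were lower and 0 higher, where 3.16% of loci were lower, 1.43% higher and 4.59% different. The median log2 difference was -1.49 over the members and -0.47 over all loci, and 99 of the 113 were below 0. Against dcl4-2 these medians were -0.08 and 0.19, and between dxo1-2 and dcl4-2 they were 1.23 and 0.67. The 8 were AT5G39185 and AT5G39155, from the same set of near-identical 24-nt values, AT1G47470, AT1G47450, AT3G29153, GH9B12, GH9B11 and CYP708A2. GH9B11 measured 24.8, 15.8 and 15.9 in dxo1-2 and 0, 2.68 and 2.53 in the double mutant. CYP708A2 measured 30.1, 36.9 and 23.0 in dxo1-2 and 1.42, 11.6 and 6.33. The 8 calls went to 0 when any 1 of the 3 dxo1-2 libraries was left out. One member was higher in dxo1-2 than in dcl4-2, AT3G43355, with 21.8, 21.1 and 15.1 against 3.11, 0 and 2.17, where 2.24% of loci were higher, 0.558% lower and 2.80% different, and that call was lost when any dxo1-2 library or either of 2 dcl4-2 libraries was left out.

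Within a library, 24-nt reads made up 83.0% ± 6.52 (SD, n = 3) of the members' 21-, 22- and 24-nt reads in Col-0, which the rule had set. They made up 82.8% ± 2.51 in dxo1-2, 80.8% ± 4.65 in dcl4-2 and 74.2% ± 4.02 in dxo1-2dcl4-2. The double-mutant libraries, 71.9% to 78.9%, overlapped those of dcl4-2 and lay below those of dxo1-2, of which the lowest had 81.0%. With the deposited normalized values in place of reads, both relations turned: the double-mutant libraries, 75.11% to 79.85%, overlapped those of dxo1-2, 75.73% to 78.66%, and lay below those of dcl4-2, 83.31% to 85.67%. At the other 126 loci the shares were 44.4%, 49.1%, 36.7% and 45.5% in the same order, and over all loci 31.5%, 38.1%, 25.7% and 15.9%.

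Single members departed from this. AT5G38365, AT4G05591, AT1G46624 and CYP51G2 had the lowest 24-nt shares over the 9 mutant libraries, 59.5% to 67.2%. AT4G05591 had 24.2% in dcl4-2 against 88.8% in dxo1-2, and CYP51G2 had 39.1% in dxo1-2dcl4-2 against 72.1% in dxo1-2. AT4G10890, AT5G35425, AT3G44170 and RR21, a response regulator of the cytokinin pathway, had the highest, 93.5% to 97.6%.

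The mRNA libraries were independent of the rule. Of the 116 members, 69 were listed at 0 FPKM in all 9 mRNA libraries and 42 had a mean above 0 but below 1 FPKM. Only 5 (4.31%) reached a mean of 1 FPKM, against 54.7% of 33602 genes and 20 of the other 126 loci. In bulk tissue, fewer cells of a type and less RNA per cell cannot be told apart.

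Of those 5, limma on log2(FPKM + 1) over 18378 genes called 3 higher and 2 lower against Col-0 in the dxo1-1 libraries, where 49.6% of all genes were higher, 26.0% lower and 75.6% called in all. In dxo1-2 it called 3 higher and 1 lower, where 51.8% were higher, 21.2% lower and 73.0% called. Between dxo1-2 and dxo1-1 it called 0 higher and 2 lower, where 22.3% were higher, 15.7% lower and 38.1% called. With so large a background, the counts say nothing particular about the members. The meristem gene STM averaged 0.69 FPKM in Col-0, 3.54 in dxo1-1 and 3.30 in dxo1-2, and the root gene TIP2;3 averaged 4.46, 2.00 and 0.317. Another root gene, PYK10, averaged 464.4, 369.6 and 310.3. Of 6 leaf markers, LHCB1.1 averaged 13890, 7951 and 9963 FPKM in the same order, PSBP1 5086, 2013 and 2556, and RBCS1A 27410, 18000 and 18580. CA1 and GDCST were also lower in both dxo1 lines than in Col-0, and the plastid gene RBCL averaged 9.70, 4.55 and 33.2. The part of these markers in the differences was not tested.

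AT1G73650 was the member with most mRNA, at 26.6, 25.8 and 25.3 FPKM in Col-0, 67.7, 68.4 and 65.7 in dxo1-1 and 55.6, 51.7 and 50.8 in dxo1-2. Both mutant lines stood above Col-0 without overlap, by log2 differences of 1.34 ± 0.05 and 1.00 ± 0.05. AT1G36622 rose from 4.6, 3.02 and 3.78 FPKM to 35.6, 31.8 and 34.5 in dxo1-1 (log2 2.88 ± 0.15, adjusted p = 1.02e-08, limma). In dxo1-2 it measured 22.5, 15.6 and 15.3 (log2 1.96 ± 0.15, adjusted p = 3.11e-07). Its 24-nt reads, in other plants, were 61.1, 46.6 and 46.1 in Col-0 and 21.8, 44.9 and 14.0 in dxo1-2. AT2G41640 rose from 5.67, 6.42 and 5.62 FPKM to 14.7, 15.3 and 15.6 in dxo1-1 and 14.7, 14.7 and 14.2 in dxo1-2.

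CYP708A2 mRNA was lower, at 4.5, 4.49 and 4.45 FPKM in Col-0, 2.18, 2.3 and 3.0 in dxo1-1 and 2.26, 2.25 and 1.61 in dxo1-2. The log2 differences were -0.66 ± 0.12 and -0.86 ± 0.12, and its 24-nt reads in dxo1-2 were below all 3 Col-0 libraries. AT4G10890 measured 2.81, 3.88 and 3.29 in Col-0 and 2.22, 2.76 and 2.1 in dxo1-1 (log2 -0.36, adjusted p = 0.0224). In dxo1-2 its difference of -0.16 did not pass (adjusted p = 0.262), but it passed at -0.52 with libraries centred on their median. Next below the limit of 1 FPKM came AT3G17400, an F-box gene listed at 0 in all 3 Col-0 libraries, at 0.59, 1.29 and 1.33 FPKM in dxo1-1 and at 0.57, 1.18 and 0.87 in dxo1-2. AT3G54730 and AT3G42052 followed with means of 0.508 and 0.448 FPKM over the 9 libraries.

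**Figure D4:**
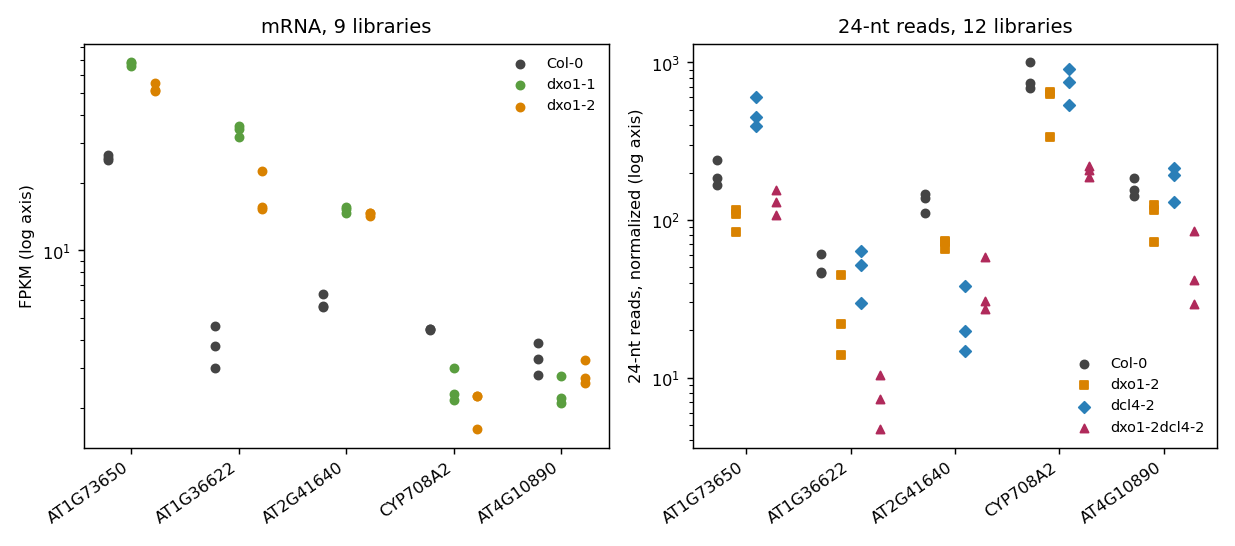
The 5 members with a mean of at least 1 FPKM: mRNA in 9 libraries (left, FPKM, log axis) and 24-nt reads in 12 libraries of younger plants (right, normalized reads, log axis). Each point is 1 library. AT1G73650, AT1G36622 and AT2G41640 mRNA lies above Col-0 in both dxo1 lines and CYP708A2 mRNA below.

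A list of genes of 24-nt siRNA production, RdDM and DNA methylation at large was examined in the same mRNA fit. Besides genes that make or use 24-nt siRNAs, it held genes of methylation maintenance, such as MET1 and CMT2, and demethylase genes, such as DML2. Its counts and medians are therefore not those of the siRNA pathway alone. Of the 39 genes, 32 reached 1 FPKM. In the dxo1-1 libraries 6 rose and 10 fell, with 16 not passing, where 49.6% of all genes were higher and 26.0% lower. In dxo1-2 7 rose and 5 fell, with 20 not passing, where 51.8% of all genes were higher and 21.2% lower. The list's median log2 difference was -0.10 and 0.03, against 0.21 and 0.25 over all genes tested. With libraries centred on their median, the all-gene medians became -0.10 in both lines, and the list gave 3 higher and 24 lower in dxo1-1, where 34.4% of all genes were higher and 43.5% lower. It gave 4 higher and 20 lower in dxo1-2, where 32.3% were higher and 42.5% lower. The split into higher and lower therefore depends on the scaling, and in dxo1-2 its direction turns.

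Some genes of siRNA production were expressed at low levels. Others, NRPD2A, SHH1 and HEN1, averaged 6.10, 5.61 and 3.57 FPKM in Col-0. None of these passed in either dxo1 line, and all were lower in both with libraries centred on their median. RDR2 measured 1.35, 1.82 and 1.69 FPKM in Col-0, 1.04, 0.76 and 0.80 in dxo1-1 and 1.13, 0.72 and 0.75 in dxo1-2. Its log2 difference was -0.49 ± 0.14 in both lines (adjusted p = 0.00789 and 0.00793, limma). DCL3 was lower by log2 differences of -0.32 and -0.37. NRPD1, the largest subunit of RNA polymerase IV, measured 0.86 to 1.11 FPKM over the 9 libraries and did not pass. Centred on the median, it was lower in both lines, at -0.39 and -0.43. AGO4 did not pass in either line, and was lower by the centred scale at -0.42 and -0.21. NRPD4, a subunit shared by the silencing polymerases, was lower in dxo1-1 at -0.56, and its -0.23 in dxo1-2 did not pass.

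On the log2(FPKM + 1) scale, which understates changes of low genes, RDM1 had the largest rise of the 32 genes. RDM1 takes part in RdDM at chromatin. It rose from 21.3, 21.2 and 18.4 FPKM in Col-0 to 52.9, 50.7 and 53.6 in dxo1-1 and 62.6, 66.9 and 68.2 in dxo1-2 (log2 1.33 ± 0.06 and 1.65 ± 0.06). HDA6, a histone deacetylase of silenced chromatin, rose by 0.99 and 1.17, and the argonaute gene AGO3 by 0.96 and 1.20. AGO3 measured 0.95, 0.92 and 0.99 FPKM in Col-0, 2.53, 2.97 and 2.94 in dxo1-1 and 3.69, 3.61 and 3.14 in dxo1-2. RDM1, HDA6 and AGO3 stayed higher under the centred scale. CLSY3 (AT1G05490), a chromatin remodeller that guides RNA polymerase IV, was below 1 FPKM and was not tested. It measured 0.12, 0.08 and 0.12 FPKM in Col-0, 0.63, 0.86 and 0.88 in dxo1-1 and 0.67, 0.76 and 0.65 in dxo1-2, both above Col-0 without overlap. DML2, a DNA demethylase, rose by 0.56 and 0.81, but its centred difference of 0.24 in dxo1-1 did not pass (adjusted p = 0.054). The largest fall of the 32 on that scale was that of CMT2, a DNA methyltransferase of heterochromatin, from 7.53, 8.28 and 6.95 FPKM to 2.52, 2.27 and 3.33 in dxo1-1 and 3.44, 3.69 and 3.85 in dxo1-2. MET1, which maintains CG methylation, fell by 0.79 and 0.32 on the log2 scale, and the histone methyltransferase gene SUVH6 fell by 0.76 and 0.61. The mRNA of lines with the dcl4-2 allele was not analysed here.

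**Figure D5:**
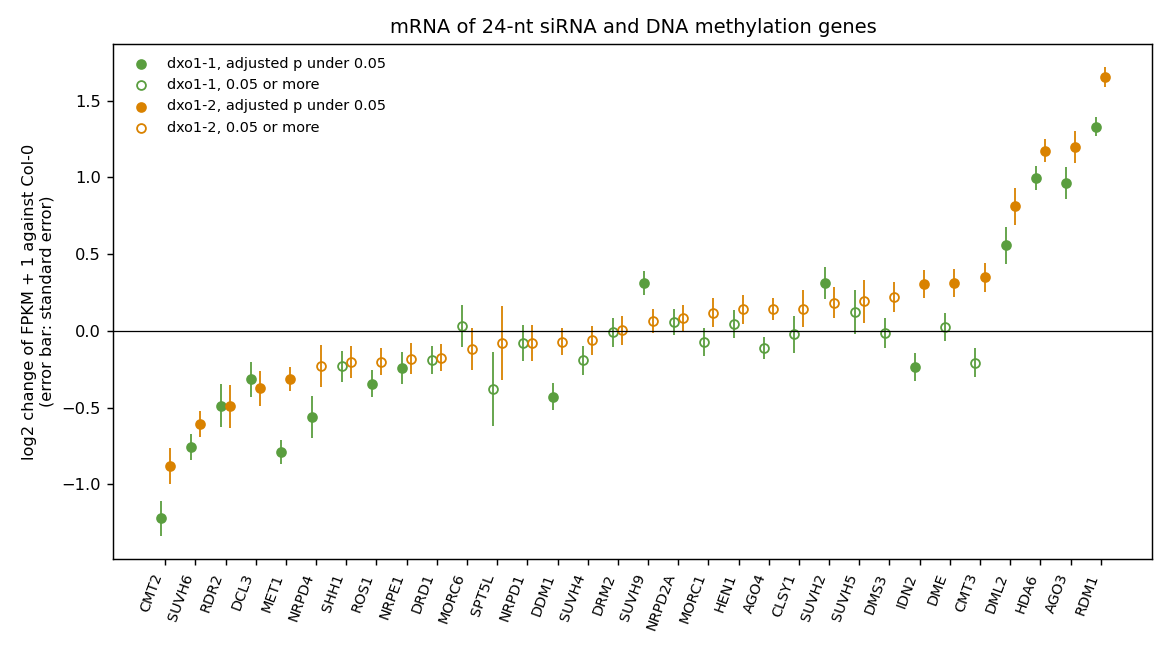
Log2 difference in FPKM + 1 of 32 genes of 24-nt siRNA production and DNA methylation in dxo1-1 and dxo1-2 against Col-0 (3 libraries per line, bars are standard errors). Filled points have an adjusted p under 0.05 in limma. RDM1 stands highest, at 1.33 and 1.65, and CMT2 lowest, at -1.22 and -0.88.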

How the data were processed

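Small RNA libraries (12) were mapped with Bowtie and mRNA libraries (9) with TopHat2 2.1.0 and RSEM 2.1.30 on TAIR10, per the submitters' processing notes. The authors deposited normalized read signal per locus in separate 21-, 22- and 24-nt tables, and FPKM per gene. The sources used here do not give the scaling method. Each signal column held whole multiples of 1 value (100% within 0.001), which recovered reads per library (173804 to 1403794 over the 3 sizes). Gene names and classes came from the RefSeq annotation of TAIR10.1.

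Tests used limma 3.58.1 in R 4.3.3 with a trend, over all loci with a mean of at least 1, pseudocount 0.5 for small RNA and 1 for FPKM, 1 fit of 12 or 9 libraries, and Benjamini-Hochberg adjusted p under 0.05. edgeR 4.0.16 on recovered reads was an alternative. Scripts were tested on simulated data. The members and lists were chosen with earlier results of these data known. Named loci were the 12 most abundant, the 4 nearest each threshold on either side, and the 8 with most mRNA. Up to 6 called per comparison and direction with the largest change were named as well. So were the 4 with the lowest and the 4 with the highest 24-nt share. Of the siRNA and DNA methylation list, the 8 genes with the largest called change were named. RDR2, DCL3, NRPD1 and AGO4 were named for their role. CLSY3, NRPD2A, SHH1, HEN1 and some members that did not pass were named after their values were seen. Same-numbered libraries did not deviate together (correlations of -0.034 to 0.094), so numbers were not used as pairs. Replicates differed by more than sampling noise (chi-square per degree of freedom 2.4 to 9.32).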

Additional observations from a re-analysis of the deposited data

Results flagged for a closer look

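Both mutant lines carry a dxo1 label, but the mRNA of 2 members differed between them by the test of the difference itself. AT1G36622 was below the dxo1-1 libraries in dxo1-2 by a log2 difference of -0.91 ± 0.15 (adjusted p = 7.16e-04, limma), with no overlap between 15.3 to 22.5 and 31.8 to 35.6 FPKM. AT1G73650 was lower by -0.35 ± 0.05 (adjusted p = 2.89e-04), with 50.8 to 55.6 against 65.7 to 68.4 FPKM. The libraries labelled dxo1-1 held 212 FPKM of DXO1 on average and dxo1-2 6.73, and the part of this in the differences was not tested.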

How the results depend on the processing

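Values are the percent of members called at 24, 22 and 21 nt, with the percent of all loci called at the same setting in parentheses, and counts for mRNA. Other member sets do not change the percent of all loci. Ranges for leaving out 1 library and values with the replicate block are given for the members alone. The comparisons are A, dxo1-2dcl4-2 against dcl4-2, B, dxo1-2dcl4-2 against dxo1-2, and C, dxo1-2 against dcl4-2. At 24 nt, A (37.9%, all loci 4.57%) became 19.3% with members from a Col-0 mean of 20, 61.7% from 100, 83.6% (10.5%) scaled by the reads of all 3 tables and 4.31% (1.71%) scaled by microRNA genes. B (27.6%, all loci 2.49%) became 11.7% and 57.4% with those minimums, 69.0% (7.03%) in edgeR, 99.1% (26.0%) and 48.3% (6.06%) under those scalings, and 18.1% (1.44%) with the 9 mutant libraries alone. C (1.72%, all loci 0.626%) became 4.55% with members at 8 times, 0.783% and 4.26% with the minimums of 20 and 100, 2.59% (0.543%) in edgeR, 0.862% without the filter (0.222%) or with 9 libraries (0.425%), and 6.90% (1.16%) and 5.17% (1.09%) under the scalings. Leaving out 1 library gave 28.4% to 41.4% for A, 16.4% to 31.0% for B and 0.862% to 1.72% for C.

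At 22 nt, A (5.17%, all loci 5.55%) became 17.2% (5.60%) scaled by all reads. B (2.59%, all loci 2.65%) became 0.783% and 4.26% with the minimums, 5.17% (3.24%) with a pseudocount of 2, 1.72% (0.964%) without the filter, 4.31% (11.3%) with a filter at 5, 37.9% (5.58%) and 5.17% (2.87%) under the scalings and 0.862% (1.87%) with 9 libraries. C (1.72%, all loci 1.35%) became 2.72% with members at 2 times, 1.04% and 0.0% with the minimums, 3.45% (1.73%) with a pseudocount of 2, 2.59% (6.45%) with a filter at 5, and 2.59% (1.30%) and 3.45% (1.4%) under the scalings. Leaving out 1 library gave 2.59% to 5.17%, 0.862% to 5.17% and 0.862% to 4.31%. At 21 nt, A (0.0%, all loci 3.86%) became 1.09% with members at 2 times, 1.83% from a mean of 20, 0.862% (4.12%) with a pseudocount of 2, 2.59% (21%) with a filter at 5 and 8.62% (4.90%) scaled by all reads. B (6.90%, all loci 4.59%) became 2.27% with members at 8 times, 2.35% from a mean of 20, 0.862% (2.70%) in edgeR, 1.72% (1.24%) without the filter, 22.4% (7.66%) scaled by all reads and 2.59% (4.07%) with 9 libraries. C (0.862%, all loci 2.80%) became 0.0% with members at 8 times, in edgeR (1.74%), without the filter (0.762%) and with 9 libraries (2.46%), 0.543% with members at 2 times, 2.13% from a mean of 100, 3.45% (12.8%) with a filter at 5 and 1.72% (3.43%) scaled by all reads. Leaving out 1 library gave 0.0% to 2.59%, 0.0% to 7.76% and 0.0% to 0.862%. The cause of these shifts was not tested.

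In mRNA, the 5 members called in dxo1-1 became 3 with a filter at 5 FPKM, where all genes called went from 75.6% to 80.9%. Without the filter they became 10, and the 4 in dxo1-2 became 7. Leaving out 1 library gave 4 to 5 in dxo1-1 and 4 to 4 in dxo1-2. The shares of all genes called without the filter or without 1 library are not given here, so these counts say nothing particular about the members. The 16 genes of the siRNA and DNA methylation list called in dxo1-1 became 27 centred, 26 by quantile normalization and 8 with a filter at 5. All genes called went from 75.6% to 78.0%, 77.2% and 80.9%. The 12 in dxo1-2 became 24 and 22, with the direction of the majority turning to lower, and 7 with the filter, where all genes went from 73.0% to 74.8%, 74.0% and 79.6%. Those between the dxo1 lines (9) ran from 5 to 10 without 1 library. With deposited values in place of reads the 24-nt share in dxo1-2 was 77.6% instead of 82.8%. The replicate block, for numbers that did not pair the libraries, changed 21-nt C to 0.0% and gave 38.8% for 24-nt A and 29.3% for B. The remaining 191 values moved less. At 21 nt, 1 read was worth 0.378 to 1.55 normalized units.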
